A study of Mus musculus with 12 samples.

Results

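The goblet cell and mucus genes are 38 genes that mark the mucus-secreting cells of the intestine or act in making mucus. They were found by gene symbol in the table of RNA-seq counts of mouse colonic crypts, in which 37 of the 38 carry their symbol and the last, Muc4, was matched by its identifier because its symbol is blank. The table lists 55471 genes. Crypts were loosened with EDTA from the colon of 8-week-old female mice on the C57BL/6J background, and 12 libraries of 1 mouse each fall into 4 groups of 3. CBPWTp53-floxed mice carry wild-type CBP and floxed p53 alleles without Cre. CBPAAp53-floxed mice carry the same floxed alleles and a knock-in in all tissues that replaces serines of CBP, the histone acetyltransferase encoded by Crebbp, with alanines, so that IKKα cannot phosphorylate them. In CBPWTp53ΔIEC and CBPAAp53ΔIEC mice, Villin-Cre removes the floxed p53 alleles in intestinal epithelial cells, on wild-type or alanine CBP. The study's methods name both 129 and C57BL/6N as the source of the embryonic stem cells for the knock-in, which was backcrossed to C57BL/6. The comparisons ask whether goblet cell and mucus genes differ with CBP phosphorylation, with epithelial p53, or with both.

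Goblet cells store mucins in granules and release them to build the mucus layer that separates bacteria from the colonic epithelium. Muc2 is the gel-forming mucin of that layer. It is folded in the endoplasmic reticulum with the help of Agr2, a protein disulfide isomerase, and then densely decorated with O-linked glycans by enzymes of the Golgi, while factors such as Spdef, Creb3l1 and Klf4 direct the maturation of the cells. The mucus also holds proteins that goblet and neighbouring crypt cells secrete, among them the metalloprotease Clca1, the Fc-gamma-binding protein Fcgbp, the lectin-like Zg16 and the trefoil peptide Tff3.

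The libraries held 11177430 to 18029125 counted reads, and levels are given as TPM, which scale reads to gene length and library size. Trp53 served as the check of the p53 labels, with 23.3 to 33.5 TPM in the 6 floxed libraries and 3.26 to 6.13 TPM in the 6 p53ΔIEC libraries. The CBP labels could not be checked this way, since the knock-in changes codons. Crebbp lay between 5.98 and 11.5 TPM and was not called in any comparison. The epithelial markers Epcam, Krt8, Krt19 and Cdh1 summed to 9006 to 13401 TPM. The 6 stromal and endothelial markers summed to at most 1.56 TPM, with Cdh5 at 0 in every library, and the 6 leukocyte markers to at most 5.5 TPM. The labels give the tissue as intestine and the cells as colonic crypts, but genes of the small intestine were present in some libraries. Defa24, a Paneth cell defensin of the small intestine, had 8290 TPM in CBPWTp53ΔIEC 1, 1910 in CBPAAp53ΔIEC 3, 1080 in CBPAAp53ΔIEC 1 and 471 in CBPAAp53-floxed 2, against 0 in the CBPWTp53-floxed libraries and at most 23.1 in the others. The 8 Paneth cell markers summed to 23.9 to 63.4 TPM in CBPWTp53-floxed, 95 to 1170 in CBPAAp53-floxed, 56.7 to 22187 in CBPWTp53ΔIEC and 64.7 to 5489 in CBPAAp53ΔIEC libraries, and 5 of them were at 0 in all CBPWTp53-floxed libraries. The 8 markers of small-intestinal enterocytes summed to 76.2 to 79.9, 44.1 to 790, 62.5 to 3633 and 65.7 to 1560 TPM in the same order. Results are therefore also given without these 4 libraries, a choice made after the values were seen. It leaves CBPAAp53ΔIEC with 1 library, which is then assumed to vary like the other groups. Whether small-intestinal tissue shaped a goblet gene's level was not tested.

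The goblet genes took a large share of the mRNA. Their summed TPM was 5.34% ± 1.13 (SD, n = 3) of the total in CBPWTp53-floxed, 8.30% ± 3.35 in CBPAAp53-floxed, 5.02% ± 0.672 in CBPWTp53ΔIEC and 4.79% ± 1.45 in CBPAAp53ΔIEC crypts. The highest value, 12.1%, came from CBPAAp53-floxed 3, and the group ranges overlapped. Mptx1, a pentraxin of the colonic epithelium, made up most of that spread. Without it, the sums were 3.21% ± 0.292, 3.91% ± 0.989, 3.34% ± 0.397 and 3.16% ± 0.474 in the same order of groups. Mptx1 had the fourth highest mean TPM of all genes, followed among the goblet genes by Zg16 and Clca1. St6galnac1, a sialyltransferase that makes the sialyl-Tn glycan, was the exception at 0 to 4 reads per library. It did not pass the filter on low counts, so 37 of the 38 genes were tested.

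Among the secreted products, Ang4, Mptx1 and Clca1 had the widest ranges between libraries. Mptx1 had 11780, 24333 and 27832 TPM in the CBPWTp53-floxed libraries, 34118, 26582 and 71028 in CBPAAp53-floxed, 21267, 18889 and 10404 in CBPWTp53ΔIEC, and 17403, 5885 and 25592 in CBPAAp53ΔIEC, in the order of their replicate numbers. Clca1, which trims the Muc2 network, had 4171, 6283 and 6897 TPM in CBPWTp53-floxed, 8465, 4495 and 13554 in CBPAAp53-floxed, 4664, 4889 and 3494 in CBPWTp53ΔIEC, and 4915, 1858 and 7758 in CBPAAp53ΔIEC. Both were highest in CBPAAp53-floxed 3 and lowest in CBPAAp53ΔIEC 2, and all 4 groups overlapped for Clca1. Ang4, a secreted ribonuclease with antimicrobial activity, spanned a 39.4-fold range, the widest of the 10 most abundant members. It had 1875, 3159 and 3725 TPM in CBPWTp53-floxed, 5185, 3122 and 11777 in CBPAAp53-floxed, 2732, 2329 and 1462 in CBPWTp53ΔIEC, and 2333, 299 and 4942 in CBPAAp53ΔIEC. Fcgbp, a mucin-binding protein of the mucus gel, had 1053, 1415 and 1928 TPM, then 2297, 1065 and 1884, then 1076, 1161 and 1248, then 1325, 722 and 2136 in the same order. Its lowest library was again CBPAAp53ΔIEC 2.

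**Figure D1:**
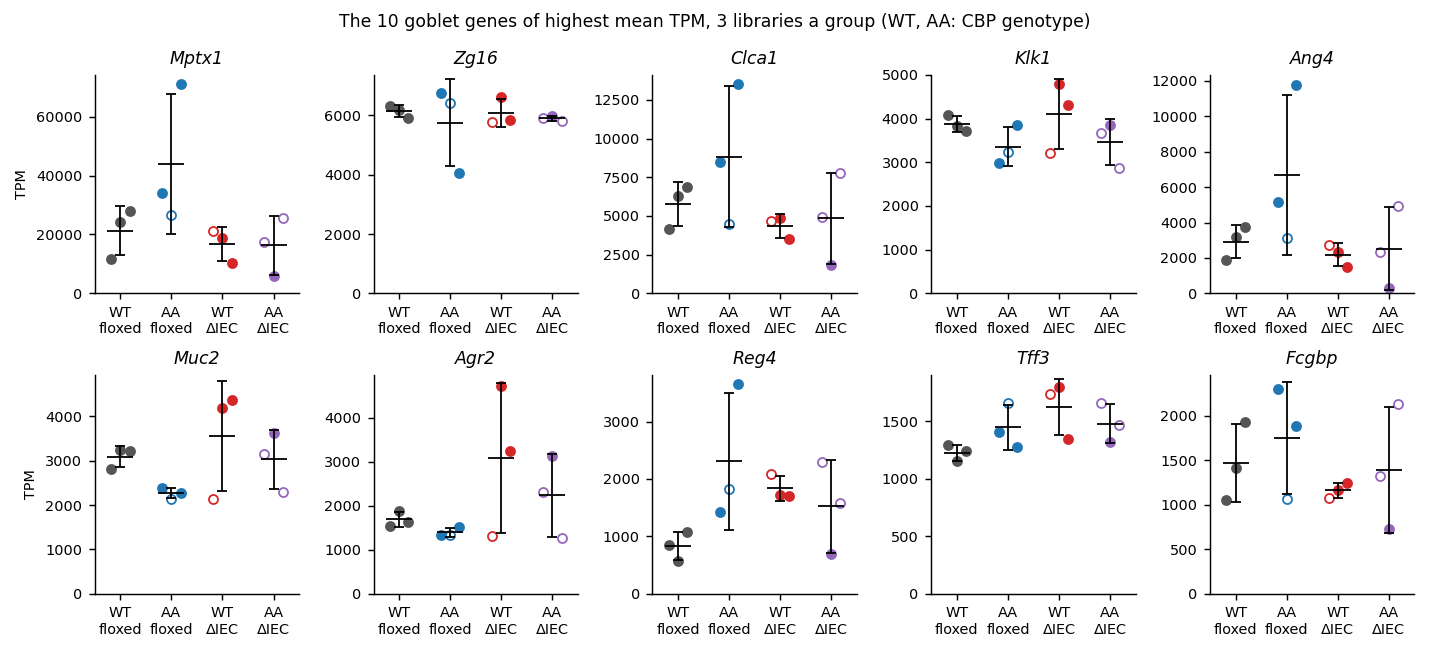
TPM (vertical axes, from 0) of the 10 goblet genes of highest mean TPM in the 4 groups (WT and AA are the CBP genotype; floxed and ΔIEC the p53 state). Points are libraries, open where Defa24 exceeded 100 TPM, and bars are the mean ± SD of 3 libraries. Mptx1, Clca1 and Ang4 peak in a single CBPAAp53-floxed library, whereas Zg16 stays between 4059 and 6754 TPM.

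Zg16, Klk1, Tff3 and Tpsg1 were steadier, with the highest library at most 1.66-fold above the lowest. Zg16, which binds Gram-positive bacteria, had 6303, 6180 and 5913 TPM in CBPWTp53-floxed, 6754, 6425 and 4059 in CBPAAp53-floxed, 5785, 6618 and 5850 in CBPWTp53ΔIEC, and 5898, 5983 and 5806 in CBPAAp53ΔIEC. Its lowest library was the one with the highest Mptx1. Klk1, a tissue kallikrein, had 4086, 3820 and 3719 TPM, then 2978, 3236 and 3862, then 3222, 4783 and 4308, then 3673, 3855 and 2874. Tff3, which aids epithelial repair, had 1292, 1151 and 1238 TPM in CBPWTp53-floxed, 1409, 1661 and 1274 in CBPAAp53-floxed, 1736, 1795 and 1350 in CBPWTp53ΔIEC, and 1657, 1319 and 1464 in CBPAAp53ΔIEC. The 3 CBPWTp53ΔIEC values of Tff3 lay above all 3 of CBPWTp53-floxed. Reg4, a C-type lectin-like protein of deep crypt secretory cells, spanned a 6.41-fold range and had 848, 571 and 1075 TPM in CBPWTp53-floxed, 1430, 1829 and 3662 in CBPAAp53-floxed, 2084, 1726 and 1701 in CBPWTp53ΔIEC, and 2305, 689 and 1585 in CBPAAp53ΔIEC. Its CBPWTp53-floxed libraries were below every library of CBPAAp53-floxed and CBPWTp53ΔIEC, and CBPAAp53ΔIEC overlapped them. Spink4 ranged from 700 to 1933 TPM, Tpsg1 from 87.8 to 138 and Spink1, a trypsin inhibitor, from 27.6 to 144, a 5.22-fold range.

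Muc2 and Agr2 followed another order of libraries. Muc2 had 2817, 3240 and 3215 TPM in CBPWTp53-floxed, 2382, 2144 and 2278 in CBPAAp53-floxed, 2133, 4198 and 4361 in CBPWTp53ΔIEC, and 3148, 3637 and 2306 in CBPAAp53ΔIEC. All 3 CBPAAp53-floxed libraries lay below all 3 CBPWTp53-floxed libraries, while CBPWTp53ΔIEC held both the highest and the lowest value of the series. Agr2 had 1547, 1887 and 1635 TPM in CBPWTp53-floxed, 1329, 1342 and 1515 in CBPAAp53-floxed, 1321, 4722 and 3242 in CBPWTp53ΔIEC, and 2323, 3132 and 1257 in CBPAAp53ΔIEC. The libraries with high Agr2, CBPWTp53ΔIEC 2 and 3 and CBPAAp53ΔIEC 1 and 2, also had the most Mki67, a marker of dividing cells, at 107, 95.5, 75.7 and 81.9 TPM against 12.9 to 31.2 TPM elsewhere. What part dividing cells had in this was not tested, and in bulk crypts fewer cells of a type and less RNA per cell cannot be told apart. Of the transmembrane mucins, Muc13 was steady at 1001 to 1430 TPM, Muc4 ranged from 18.1 to 51.7 and Muc1 from 6.00 to 15.8. Among the factors of secretory vesicles, the synaptotagmin-like proteins Sytl2 and Sytl4 ranged from 14.6 to 32.2 and from 9.33 to 18.8 TPM, the protease Capn9 from 27.1 to 51.5 and Bcas1 from 71.5 to 114.

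The transcription factors were led by Klf4, at 418 to 655 TPM. Creb3l1, which supports secretory capacity, ranged from 173 to 353 TPM and Spdef, which drives goblet cell maturation, from 80.8 to 181. Foxa1, Foxa2 and Foxa3, forkhead factors of secretory lineages, had 44.3 to 94.5, 17.7 to 43.5 and 40.0 to 84.7 TPM, each lowest in CBPWTp53ΔIEC 1. The O-glycan enzymes spanned 14.9 TPM (Galnt5 in CBPAAp53-floxed 2) to 418 TPM (St3gal4 in CBPAAp53ΔIEC 3), leaving out St6galnac1. Galnt3, Galnt4, Galnt5, Galnt7 and Galnt12 add the first sugar, C1galt1 with its chaperone C1galt1c1 builds core 1, B3gnt6 builds core 3, Gcnt3 branches cores and Fut2 adds fucose. St3gal4, which adds sialic acid, was highest in CBPAAp53ΔIEC 3 (418 TPM) and CBPWTp53ΔIEC 1 (391 TPM), the libraries of highest Defa24, against 139 to 319 TPM in the others. Over the 37 tested genes, CBPWTp53ΔIEC 1 was the lowest library for 11.

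**Figure D2:**
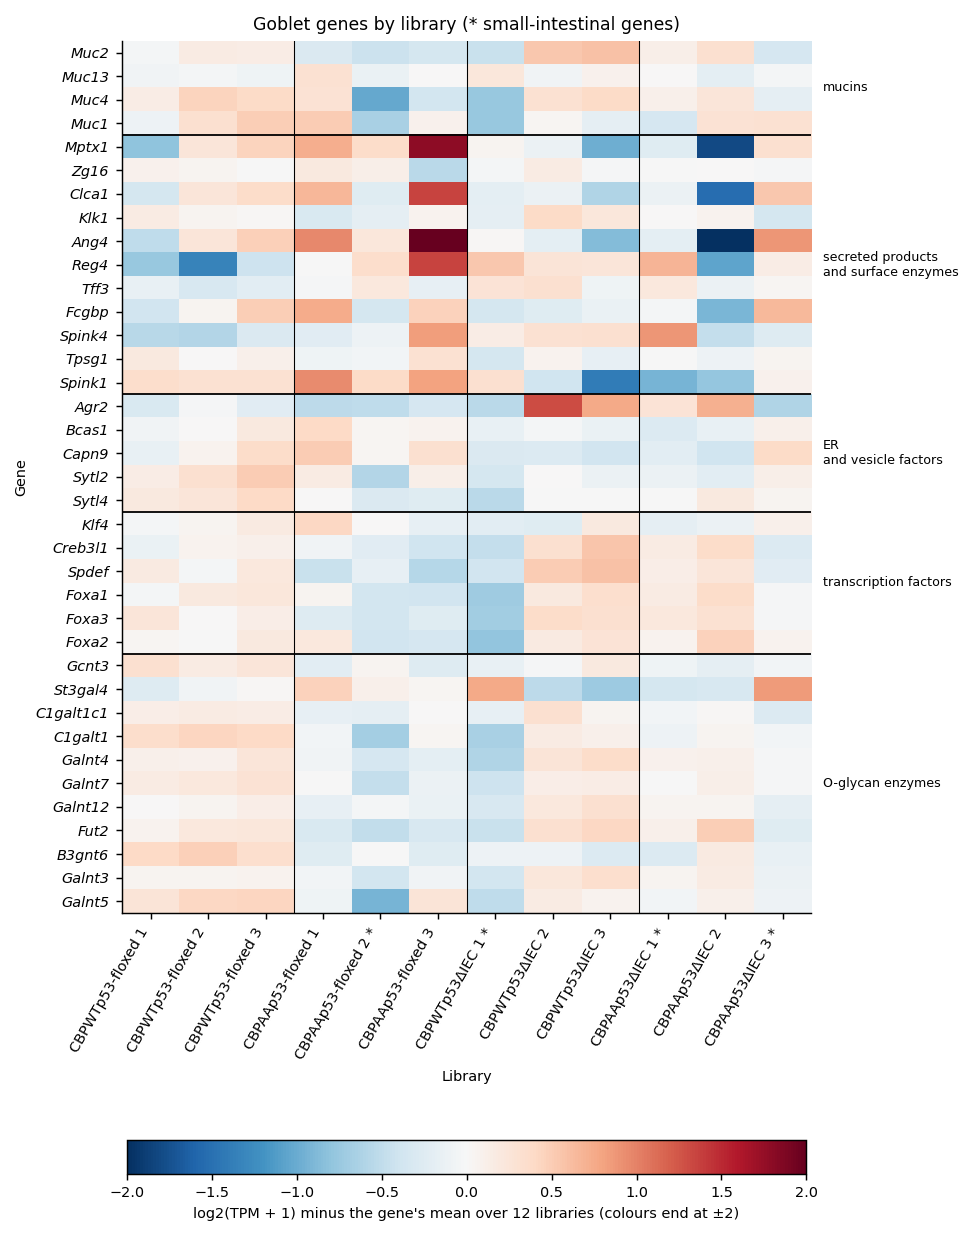
Log2(TPM + 1) of 37 goblet genes (rows, by role) in 12 libraries (columns, by group), each minus the gene's mean over all libraries, with colours ending at ±2; stars mark the 4 libraries with small-intestinal genes. Mptx1, Clca1 and Ang4 share a red cell in CBPAAp53-floxed 3 and a blue one in CBPAAp53ΔIEC 2, and most transcription factors are lowest in CBPWTp53ΔIEC 1.

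Of the 10 most abundant goblet genes, 6 fell into 2 sets that varied together across mice, Mptx1, Clca1, Ang4 and Fcgbp in one and Muc2 and Agr2 in the other. The sets were picked out after the values were seen. Over the 45 pairs of the 10 most abundant genes, correlated on the log2 CPM scale in 12 libraries, 7 pairs had adjusted p under 0.05 for both Pearson's r and Spearman's rho (100000 permutations, two-sided, Benjamini-Hochberg over 45 pairs). Clca1 and Ang4 had r = 0.98 (permutation p = 1e-05, adjusted 7.5e-05) and rho = 0.97 (permutation p = 1e-05, adjusted 0.00015), where 1e-05 is the smallest p these permutations can give. Without the 2 libraries farthest from the median of Clca1, r was 0.96, with group means removed 0.97, and without the 4 libraries with small-intestinal genes 0.99. The 6 pairs among Mptx1, Clca1, Ang4 and Fcgbp had r of 0.83 to 0.98. Muc2 and Agr2 had r = 0.91 (permutation p = 1e-05, adjusted 7.5e-05) and rho = 0.88 (permutation p = 0.00043, adjusted 0.00322), with r = 0.85 without the 2 farthest libraries, 0.96 with group means removed and 0.91 without the 4 libraries. Reg4 and Tff3 passed by rank alone (rho = 0.83, permutation p = 0.00128, adjusted 0.0072, and r = 0.68, permutation p = 0.0142, adjusted 0.0798), and Zg16 and Klk1 were in no pair that passed. Between the sets the sign was negative and did not pass, as for Muc2 and Clca1 (r = -0.54, permutation p = 0.0636, adjusted 0.159, and rho = -0.62, permutation p = 0.0375, adjusted 0.113). The CPM were scaled by TMM factors, and what part the abundance of Mptx1 had in these signs was not tested.

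**Figure D3:**
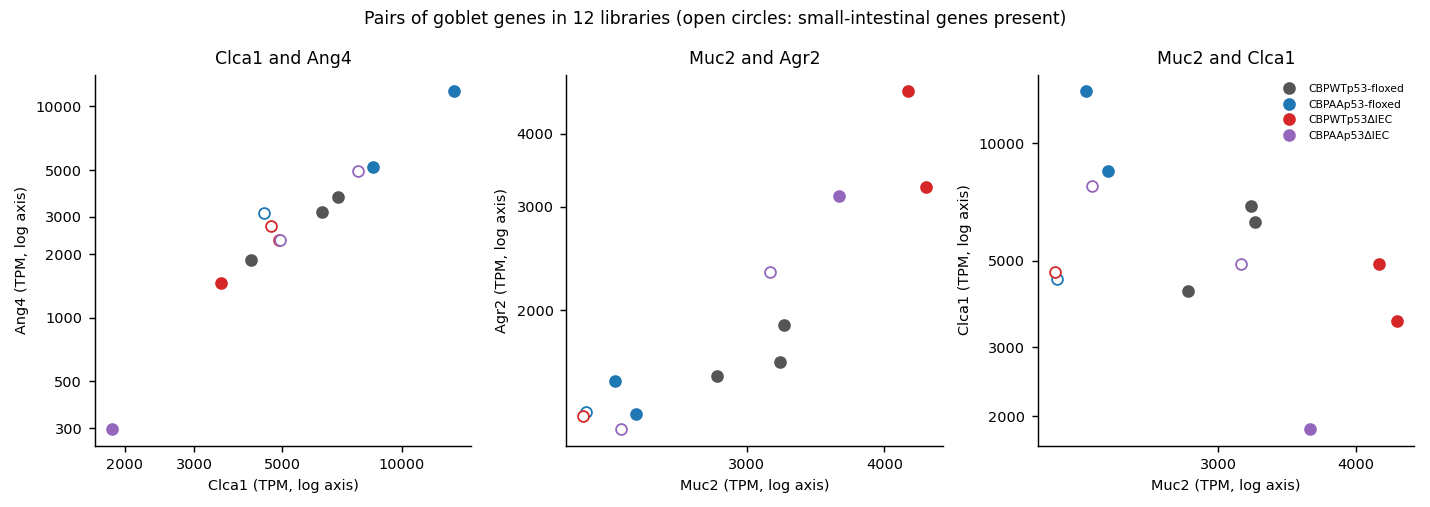
TPM of pairs of goblet genes in the 12 libraries (log axes); colours are groups, and open circles are the 4 libraries with small-intestinal genes. Over the 12 libraries, Clca1 and Ang4 rise together (r = 0.98) and so do Muc2 and Agr2 (r = 0.91). Muc2 and Clca1 scatter with a negative sign that did not pass the test. The r values are from log2 CPM, not from the TPM drawn.

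The 250 bases before the start of transcription are shown for genes of both sets that the RefSeq promoter table (GRCm38.p6) holds, since those genes moved together. It has an entry for 23 of the goblet genes examined. Capitals mark matches, on either strand, to short motifs of factors among the goblet genes, GGGTGTG (KLF), TGTTTAC (forkhead), ACGTGG (CREB3L1) and CCGGAT (SPDEF), and to the TATA box letters TATAAA. Mptx1 (chr1:174330268-174330517, plus strand), Ang4 (chr14:51773591-51773840, minus strand) and Fcgbp (chr7:28070986-28071235, plus strand) belong to the first set, Muc2 (chr7:141690090-141690339, plus strand) and Agr2 (chr12:35992675-35992924, plus strand) to the second.
Mptx1: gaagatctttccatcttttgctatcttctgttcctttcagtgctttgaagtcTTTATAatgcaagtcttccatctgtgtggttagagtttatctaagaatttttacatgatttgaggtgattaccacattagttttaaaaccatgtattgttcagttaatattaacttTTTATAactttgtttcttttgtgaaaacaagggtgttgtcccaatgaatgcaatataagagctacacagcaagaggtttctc
Ang4: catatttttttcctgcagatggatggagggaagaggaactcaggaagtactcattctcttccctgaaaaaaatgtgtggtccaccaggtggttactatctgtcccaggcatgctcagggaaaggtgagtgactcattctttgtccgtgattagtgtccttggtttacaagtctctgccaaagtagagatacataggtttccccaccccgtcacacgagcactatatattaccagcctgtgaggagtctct
Fcgbp: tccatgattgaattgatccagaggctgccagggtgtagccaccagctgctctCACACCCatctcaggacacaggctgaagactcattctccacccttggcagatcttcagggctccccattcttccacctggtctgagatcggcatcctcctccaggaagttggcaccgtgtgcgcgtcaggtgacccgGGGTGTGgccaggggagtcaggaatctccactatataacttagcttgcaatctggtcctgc
Muc2: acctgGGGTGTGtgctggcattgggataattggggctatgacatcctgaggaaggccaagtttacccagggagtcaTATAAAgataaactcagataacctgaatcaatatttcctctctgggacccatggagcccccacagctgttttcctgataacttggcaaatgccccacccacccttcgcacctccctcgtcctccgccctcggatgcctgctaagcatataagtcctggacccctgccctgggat
Agr2: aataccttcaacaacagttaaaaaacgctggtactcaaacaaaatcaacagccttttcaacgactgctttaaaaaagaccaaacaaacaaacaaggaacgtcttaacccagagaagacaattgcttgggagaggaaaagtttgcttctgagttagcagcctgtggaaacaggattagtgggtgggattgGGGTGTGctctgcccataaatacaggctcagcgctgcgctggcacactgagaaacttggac

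The KLF letters were found upstream of 6 of the 23 genes (Agr2, Fcgbp, Foxa1, Foxa3, Klk1 and Muc2) and of 6.93% of 32851 promoters of the same length. The forkhead letters were found in 2 (Foxa1 and Reg4; 3.17% of all promoters), the CREB3L1 letters in 3 (Galnt5, Klf4 and Reg4; 6.91%), the SPDEF letters in 2 (Capn9 and Galnt7; 4.94%) and the TATA letters in 6 (12.4%). A goblet gene counted if any of its entries matched, whereas the percentages count each entry. Foxa2, Muc13 and Tpsg1 have several entries, so the counts and percentages are not in the same unit. A match is a run of letters, and no binding was measured. Clca1, Zg16 and Tff3 are not in the table.

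With wild-type p53, the alanine form of CBP was compared with wild-type CBP in CBPAAp53-floxed vs. CBPWTp53-floxed crypts. Secreted products had positive log2 fold changes in 10 of 11 cases (median 0.53), against a median of 0.01 over all genes. O-glycan enzymes had negative ones in 10 of 11 (median -0.25). The signs of the secreted products are not independent. Mptx1, Clca1, Ang4 and Fcgbp varied together, and CBPAAp53-floxed 3 was the highest library for Mptx1, Clca1, Ang4 and Reg4. No goblet gene passed the cutoff, which asked for a log2 fold change beyond ±0.5 with an adjusted p below 0.05 (edgeR's quasi-likelihood test, Benjamini-Hochberg over 14610 genes). The 6 enteroendocrine markers were all lower too (median -0.44, 3 of 6 at an unadjusted p under 0.05, 0 at the cutoff by edgeR or DESeq2) and summed to 624 to 637 TPM in CBPWTp53-floxed and 381 to 564 TPM in CBPAAp53-floxed. The 8 Paneth cell markers were all higher, 5 of them called by DESeq2 and 0 by edgeR. The part of these markers in the goblet values was not tested. The background for goblet genes was as empty, at 0.0% of all genes by edgeR, and DESeq2 called 0 goblet genes and 0.122% of all. At an unadjusted p under 0.05 there were 8 of 37 goblet genes, where the whole table had 8.04%. Their adjusted p was 0.618 or more. The largest was Reg4, with a log2 fold change of 1.65 ± 0.52 (SE, 95% interval 0.50 to 2.81, n = 3 and 3, adjusted p = 0.618 by edgeR). Mptx1 had 1.22 ± 0.62 (interval -0.18 to 2.62) and Ang4 1.38 ± 0.91 (-0.70 to 3.46). Muc2 had -0.32 ± 0.19 (interval -0.73 to 0.09), B3gnt6 -0.45 ± 0.16 and Spdef -0.38 ± 0.16 (adjusted p = 0.618 for both by edgeR). Without the 4 libraries with small-intestinal genes, Spdef passed at -0.51 ± 0.09 (edgeR, adjusted p = 0.0273), 1 goblet gene where 0.276% of all genes passed.

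**Figure D4:**
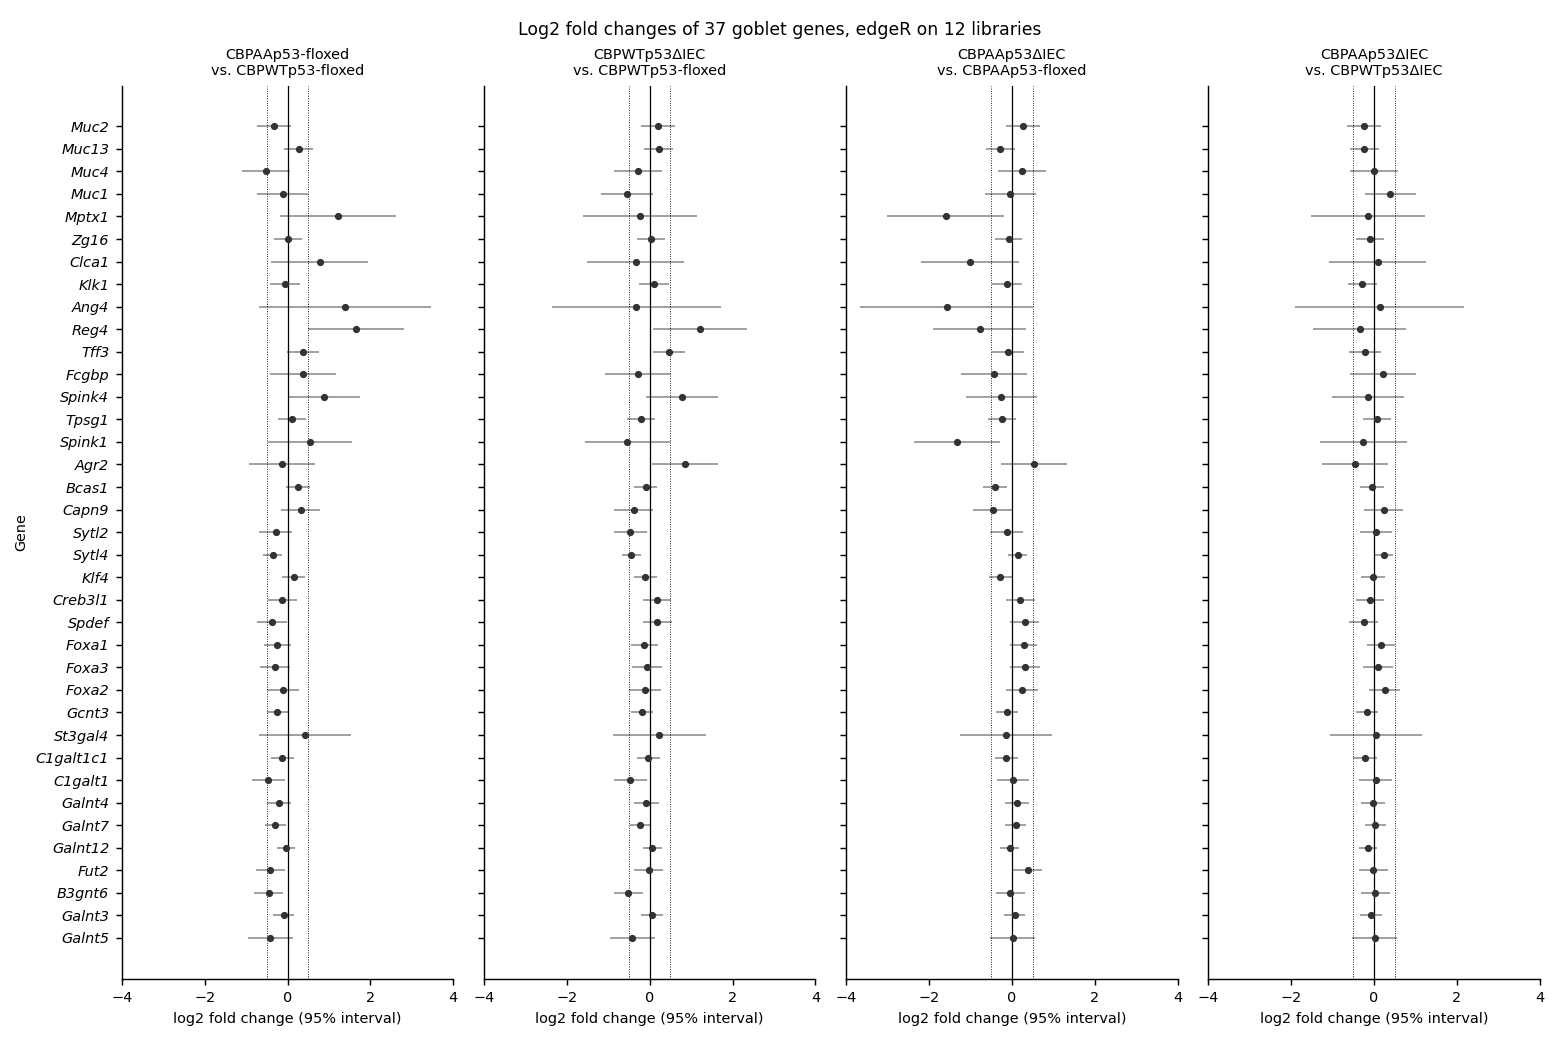
Log2 fold changes (points) with 95% intervals (bars) of 37 goblet genes in the 4 pairwise comparisons, from edgeR on 12 libraries with 3 a group; dotted lines mark ±0.5. Intervals of Mptx1, Clca1 and Ang4 are the widest and none of the genes passed the cutoff.

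The effect of deleting p53 on wild-type CBP was read from CBPWTp53ΔIEC vs. CBPWTp53-floxed crypts. Again 0 goblet genes passed, while 3.15% of all genes did by edgeR. The 8 markers of stem and dividing cells, of which 3 passed and were higher, summed to 89.4 to 96.1 TPM in CBPWTp53-floxed and 112 to 286 TPM in CBPWTp53ΔIEC. The 8 Paneth cell markers were all higher, 7 called by DESeq2 and 0 by edgeR. All 7 tested markers of small-intestinal enterocytes were higher, 2 called by DESeq2 and 0 by edgeR. Of the 8 colonocyte markers 5 were lower and 3 higher. EdgeR called 1 lower, and DESeq2 called 1 lower and 1 higher. The part of these markers in the goblet values was not tested. The adjusted p fell under 0.05 for Sytl4, a Rab27 effector in vesicle release, at -0.45 ± 0.11 (edgeR, adjusted p = 0.0388), which is under the fold cutoff. Agr2 had 0.86 ± 0.36, Reg4 1.22 ± 0.51 and B3gnt6, the core 3 synthase, -0.52 ± 0.16 (adjusted p = 0.206, 0.209 and 0.0931 by edgeR). DESeq2 called B3gnt6 (adjusted p = 0.0429) where it called 6.17% of all genes. Unadjusted p was under 0.05 for 7 of 37 goblet genes and for 20.9% of all genes. The TPM of B3gnt6 were 82.7, 87.3 and 78.8 in CBPWTp53-floxed, 52.3, 61.6 and 52.4 in CBPAAp53-floxed, 57.9, 57.7 and 51.5 in CBPWTp53ΔIEC and 51.4, 70.9 and 56.2 in CBPAAp53ΔIEC, so that the CBPWTp53-floxed libraries lay above the other 9. When the 4 libraries were left out, 5 goblet genes passed (11.4% of all genes): Agr2 rose by 1.16 ± 0.22 (edgeR, adjusted p = 0.00844), and Spink1, Capn9, St3gal4 and B3gnt6 fell, B3gnt6 to -0.69 ± 0.11 (edgeR, adjusted p = 0.00051). Muc2 had 0.38 ± 0.13 there (edgeR, adjusted p = 0.0491) and stayed under the fold cutoff.

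On alanine CBP, CBPAAp53ΔIEC vs. CBPAAp53-floxed crypts gave negative values for 11 of 11 secreted products (median -0.44, against 0.01 over all genes). At the cutoff were 0 goblet genes, beside 0.0274% of all genes. DESeq2 called 0 goblet genes beside 0.542% of all. The 8 stem and dividing cell markers were all higher (median 0.64, 4 at an unadjusted p under 0.05, 1 called by DESeq2 and 0 by edgeR), summing to 71 to 117 TPM in CBPAAp53-floxed and 104 to 235 TPM in CBPAAp53ΔIEC. Of the 8 colonocyte markers 6 were lower, 2 called by DESeq2 and 0 by edgeR, though their sums overlapped at 16360 to 27297 and 20766 to 27779 TPM. The 6 enteroendocrine markers were all higher, 1 called by DESeq2 and 0 by edgeR. The part of these markers in the goblet values was not tested. Unadjusted p was under 0.05 for 5 of 37 goblet genes and 12.6% of all. Mptx1 had a log2 fold change of -1.60 ± 0.63 and Spink1 of -1.33 ± 0.47 (edgeR, adjusted p = 0.369 and 0.342). Clca1 had -1.02 ± 0.53 and Ang4 -1.57 ± 0.92. This comparison and that of CBPAAp53-floxed with CBPWTp53-floxed crypts share the CBPAAp53-floxed libraries, among which CBPAAp53-floxed 3 was high for these genes, so their opposite signs are not independent. With the 4 libraries left out, 9 goblet genes passed (6.92% of all genes): Spdef at 0.60 ± 0.12 and Fut2 at 0.65 ± 0.12 were higher, and Clca1, Fcgbp, Capn9, Bcas1, Sytl2, St3gal4 and Muc13 were lower. Clca1 had -2.75 ± 0.58 (edgeR, adjusted p = 0.0467). These calls rest on CBPAAp53ΔIEC 2 alone, the library lowest in Clca1, Ang4 and Fcgbp.

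The effect of alanine CBP without epithelial p53 was read from CBPAAp53ΔIEC vs. CBPWTp53ΔIEC crypts. No goblet gene passed, beside 0.00684% of all genes by edgeR and 0.00369% by DESeq2, which called no goblet gene either. The 8 Paneth cell markers were all lower (median -1.72), as were the 7 tested markers of small-intestinal enterocytes (median -0.62). Of the 8 colonocyte markers 7 were lower and 1 higher. The 4 tuft and 4 tested leukocyte markers were all higher. EdgeR and DESeq2 called 0 of these markers. Their part in the goblet values was not tested. Unadjusted p was under 0.05 for Sytl4 alone (0.24 ± 0.11), 1 of 37 beside 3.57% of all genes. The interval for Zg16 was -0.44 to 0.23 and for Muc2 -0.66 to 0.17, while that for Ang4, -1.91 to 2.17, leaves changes of several fold undetectable with 3 mice a group. Across the 37 genes, the interval was narrower than ±0.5 for 25. In the 8 remaining libraries, 0 goblet genes and 0.0526% of all genes passed.

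The interaction asks whether the p53 effect differs between CBP genotypes. It was negative for 11 of 11 secreted products (median -0.68, against -0.02 over all genes). These signs are not independent. The interaction draws on the same libraries as the pairwise comparisons, and Mptx1, Clca1, Ang4 and Fcgbp among these products varied together. No goblet gene passed, beside 0.00684% of all genes by edgeR and 0.207% by DESeq2, which called none of them. At an unadjusted p under 0.05 were 4 of 37, beside 10.3% of all genes. Sytl4 had an interaction of 0.59 ± 0.15, Reg4 of -2.0 ± 0.72, Tff3 of -0.58 ± 0.25 and Muc13 of -0.50 ± 0.23, each with adjusted p = 0.482 by edgeR. In the 8 remaining libraries, B3gnt6 had an interaction of 0.98 ± 0.19. This rests on CBPAAp53ΔIEC 2 alone for its group. Averaged over CBP genotypes, p53 deletion gave 0 goblet genes at the cutoff, beside 3.5% of all genes by edgeR, and DESeq2 called 0 beside 5.06%. At an unadjusted p under 0.05 were 6 of 37, beside 21.9%. Agr2 had 0.69 ± 0.26 and Spink1 -0.93 ± 0.33 (edgeR, adjusted p = 0.149 and 0.138). Leaving the 4 libraries out, Agr2 was higher at 1.07 ± 0.18. Spink1, Clca1, Sytl2, Capn9, St3gal4, Fcgbp and Ang4 were lower, from -0.50 (Sytl2) to -2.86 (Ang4). Muc2 had 0.44 ± 0.11, under the fold cutoff. Here too CBPAAp53ΔIEC 2, the library lowest in Clca1, Ang4 and Fcgbp, stood alone for its group. Averaged over p53 states, CBP genotype gave 0 goblet genes beside 0.00684% of all genes by edgeR and 0.0184% by DESeq2, which called none. At an unadjusted p under 0.05 were 2 of 37 beside 2.57%, namely Spdef at -0.32 ± 0.12 and the core branching enzyme Gcnt3 at -0.20 ± 0.09 (edgeR, adjusted p = 1 for both). O-glycan enzymes had negative values in 10 of 11 cases (median -0.17, against -0.002 over all genes). In the 8 remaining libraries, 0 goblet genes passed beside 0.00658% of all.

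Outside the 38 genes, 28 further goblet and mucus genes were in the table, of which 23 were tested, and 29 further O-glycan enzymes, of which 25 were tested. In CBPWTp53ΔIEC vs. CBPWTp53-floxed, 2 of the 23 former genes passed, both lower, where 3.15% of all genes passed. Best2, a bicarbonate-permeable channel of colonic goblet cells, had 56.8, 62.0 and 63.8 TPM in CBPWTp53-floxed, 82.1, 50.7 and 39.5 in CBPAAp53-floxed, 27.7, 26.0 and 23.6 in CBPWTp53ΔIEC and 24.3, 39.7 and 52.4 in CBPAAp53ΔIEC. The first and the third groups did not overlap, and Best2 fell by 1.18 on the log2 scale (SE 0.28, edgeR, adjusted p = 0.0425). Averaged over CBP genotypes it fell by 0.92 (SE 0.20, edgeR, adjusted p = 0.0227), 1 of 23 genes where 3.5% of all genes passed. Rep15, a Rab15 effector, had 244, 257 and 271 TPM in CBPWTp53-floxed, 205, 167 and 182 in CBPAAp53-floxed, 117, 207 and 150 in CBPWTp53ΔIEC and 156, 204 and 201 in CBPAAp53ΔIEC, and its CBPWTp53-floxed libraries lay above the other 9. It fell by 0.68 with p53 deletion on wild-type CBP (SE 0.16, edgeR, adjusted p = 0.0373). Without the 4 libraries both stayed at the cutoff, Best2 at -1.38 ± 0.22 and Rep15 at -0.61 ± 0.15 (edgeR, adjusted p = 0.00516 and 0.0156). Of 12 fits that each left out 1 library, 8 ended the call of Best2 and 6 that of Rep15 on wild-type CBP, with adjusted p of up to 0.163 by edgeR. For Best2 averaged over CBP genotypes, 7 of 12 ended it. The other comparisons called none of these genes by edgeR.

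**Figure D5:**
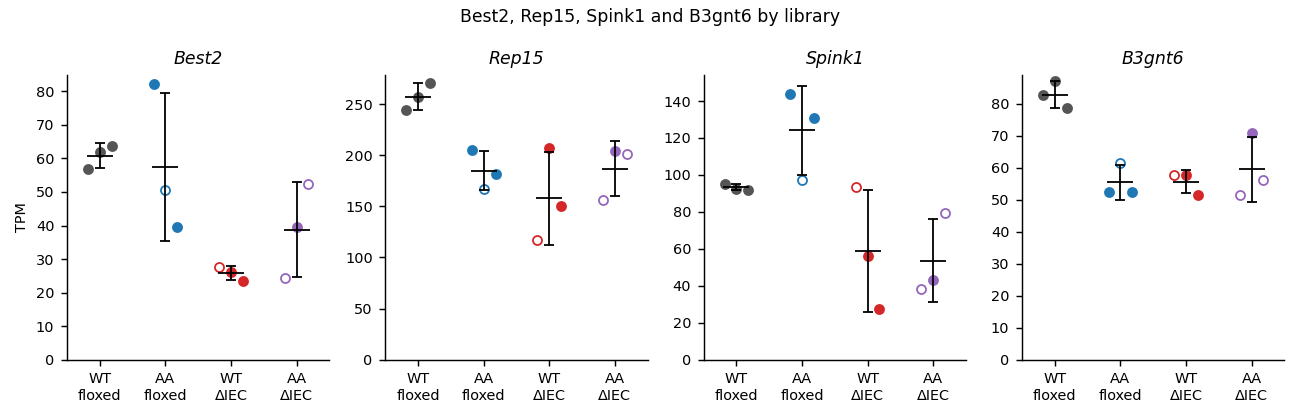
TPM (vertical axes, from 0) of Best2, Rep15, Spink1 and B3gnt6 in the 4 groups, with points for libraries (open where small-intestinal genes were present) and the mean ± SD of 3. Best2 lies at 23.6 to 27.7 TPM in CBPWTp53ΔIEC and at 56.8 to 63.8 TPM in CBPWTp53-floxed.

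Some values rest on reads that other genes could share. The exons of 7 goblet genes (Muc4, Muc13, Tpsg1, Bcas1, Galnt5, Galnt7 and St3gal4) overlap a gene on the opposite strand in the GENCODE annotation of GRCm38, and those of Galnt4 overlap Poc1b on its own strand. The labels name a stranded library kit, the study's methods name one without calling it stranded, and whether the counting used strand is not given in the sources used here. St6galnac1 shares a stretch at 98.0% identity with Gm11735. Muc2 lies on chromosome 7 from 141690340 to 141754693, Clca1 on chromosome 3 from 145003817 to 145032776, Mptx1 on chromosome 1 from 174330518 to 174332873, Ang4 on chromosome 14 from 51763878 to 51773590 and Agr2 on chromosome 12 from 35992907 to 36004087, all of GRCm38.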

How the data were processed

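RNA-seq of colonic crypts from 12 mice was used, with groups taken from the labels. Per the labels' processing notes, which name tools without their roles, the submitters used fastp 0.20.0, FastQC 0.11.9, HISAT2 2.1.0, SAMtools 1.9 and featureCounts of Subread 2.0.1 with GRCm38. The authors deposited raw counts per gene and library and TPM. The gene lengths behind TPM are not given in the sources used here. The authors' deposited fold changes and p-values were not used. Counts were fitted by edgeR 4.0.16, run under R 4.3.3, as 1 factor of 4 groups with 7 contrasts (robust quasi-likelihood, TMM, low counts removed by filterByExpr at 10), with Benjamini-Hochberg adjustment over all genes tested. The cutoff followed the study's figure legend for its RNA-seq, a log2 fold change beyond ±0.5 with an adjusted p below 0.05. The study's methods name no test for it. DESeq2 1.42.0 was an alternative, as were other normalization and filters, the replicate block, the 2 groups alone and each library left out. The fits were tested on simulated data, in which the interaction missed many of the smaller changes that the pairwise comparisons found, so its count of 0 is the least informative. The bound on recovery set first was missed by the interaction and was replaced. Every simulated gene had the same dispersion, so the simulation says little on genes as variable between mice as Ang4 or Mptx1. The members, lists and tests were chosen with earlier results of these data known. Named are the 38 genes, with every library for the 10 of highest TPM and genes at the cutoff, Trp53 and Crebbp, and genes at the cutoff in the further lists. B3gnt6 values per library, Mki67, Defa24 and the pairs shown were chosen after the values were seen. Promoter sequences came from RefSeq, and overlaps from GENCODE M21.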

Additional observations from a re-analysis of the deposited data

How the results depend on the processing

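The count of goblet genes at the cutoff was 0 in all 7 comparisons. It stayed 0 with DESeq2's size factors, without a filter on low counts and with at least 10 counts in every library. In CBPWTp53ΔIEC vs. CBPWTp53-floxed it became 1 with DESeq2 (B3gnt6), which called 6.17% of all genes. It was 1 without the fold cutoff (Sytl4) and 2 with the 2 groups alone (Reg4 and Spink4, both higher). The share of all genes is not given here for these 2 settings, so their counts cannot be set against it. When a library was left out it was 0 to 1. The 1 was B3gnt6 without CBPWTp53ΔIEC 1 (-0.69, edgeR, adjusted p = 0.0231), where 6.06% of all genes passed. For p53 deletion averaged over CBP genotypes it was 0 to 2 when a library was left out, with Agr2 and Spink1 without CBPWTp53ΔIEC 1, where 7.18% of all genes passed, and Agr2 and Capn9 without CBPAAp53ΔIEC 3, where 971 genes of the whole table passed. Without the 4 libraries with small-intestinal genes, chosen after seeing the data, it was 1 for CBPAAp53-floxed vs. CBPWTp53-floxed, 5 for CBPWTp53ΔIEC vs. CBPWTp53-floxed, 9 for CBPAAp53ΔIEC vs. CBPAAp53-floxed, 1 for the interaction and 8 for p53 deletion averaged. In the comparisons with CBPAAp53ΔIEC, these counts rest on CBPAAp53ΔIEC 2 alone for that group. The cause was not tested. None of the 39 single-gene results followed (33 of goblet genes, the others of Best2, Rep15 and Trp53) changed sign under any of these settings. Goblet genes were followed only at an unadjusted p under 0.05 in the main edgeR fit, the others only where called. The settings share most or all libraries, so a kept sign was likely from the start and does not support these results. On wild-type CBP, Best2 lost its call without CBPWTp53-floxed 1, 2 or 3, CBPAAp53-floxed 2 or 3, CBPWTp53ΔIEC 2 or 3, or CBPAAp53ΔIEC 2, and without a filter on low counts (adjusted p = 0.119 by edgeR). Rep15 lost it without CBPWTp53-floxed 1, 2 or 3, CBPAAp53-floxed 3, or CBPWTp53ΔIEC 2 or 3. Averaged over CBP genotypes, Best2 lost it without CBPWTp53-floxed 1, 2 or 3, CBPAAp53-floxed 1, CBPWTp53ΔIEC 2 or 3, or CBPAAp53ΔIEC 2. The replicate block gave 0 goblet genes in every comparison, and Best2 and Rep15 lost their calls under it (adjusted p = 0.0879 and 0.064 by edgeR for p53 deletion on wild-type CBP). Equal replicate numbers did not pair the libraries, whose deviations correlated at -0.574 to 0.601, and in 8 of 24 cases a library correlated best with its own number. As a share of counted reads in place of TPM, the goblet genes took 4.192% in CBPWTp53-floxed, 5.594% in CBPAAp53-floxed, 4.027% in CBPWTp53ΔIEC and 3.879% in CBPAAp53ΔIEC. With 3 mice a group, half-widths of the 95% interval ran from 0.23 (Galnt12) to 2.08 (Ang4) in CBPAAp53-floxed vs. CBPWTp53-floxed. What part depth or the spread between mice had in these widths was not tested.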
